A study of Mus musculus with 10 samples.

Results

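The cholesterol and fatty acid synthesis genes were followed in mouse ureteric bud (UB) organoids, in the collecting duct (CD) organoids made from them and in CD cells of adult mice. The members were listed by their function. They were 30 of the 39273 genes in the table, and 21 of them formed a sterol branch (enzymes and regulators of cholesterol synthesis) and 9 a fatty acid branch. All 30 were tested, and the lowest count of any member in any library was 61.

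The UB is the epithelial tube that branches to form the CD system of the kidney, and each group had 2 libraries. UB organoids were grown for 5, 10 or 20 days from Wnt11-RFP +/- kidneys of C57BL/6 x Swiss Webster embryos, which the labels of the first 2 of these groups place at E11.5, in mUBCM. This medium held DMEM/F12 with B-27 lacking vitamin A, ITS, GDNF, FGF9, Rspo1, CHIR99021, LDN-193189, A83-01, SB202190, JAK Inhibitor I and TTNPB. CD organoids were UB organoids of day 10 moved for a week to mCDDM, a medium of DMEM/F12 with B-27 lacking vitamin A, ITS, FGF9, Y27632, PD0325901 (a MEK inhibitor), DAPT (a Notch inhibitor), aldosterone and vasopressin. All organoid groups thus shared the basal medium, B-27, ITS and FGF9, and the adult cells were not cultured. Adult mCD were cells sorted by their Venus fluorescence from Hoxb7-Venus mice aged 2 months, although the sample labels call them organoids and repeat the embryonic age and the Wnt11-RFP genotype. Nothing stated that the libraries of a group came from separate cultures or animals, so p-values measure the spread between these libraries, which may be technical.

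Totals were between 22858971 and 24536676 counts in the day 5 and day 10 libraries and between 11913613 and 16759872 in the others. The 8 collecting duct markers summed to between 2293 and 4695 CPM (counts as a share of the library's scaled total, in units of 1e-06) in every library. The 7 UB tip markers summed to between 2240 and 3798 CPM in the UB organoids and to between 95.5 and 131 CPM in CD organoids and adult mCD. Within UB culture these markers moved apart. *Ret* had 610 and 702 CPM on day 5 and 2100 and 2075 CPM on day 20, and *Etv5* and *Gfra1* were also higher. *Wnt11* had 376 and 496 CPM and then 19.2 and 22.7 CPM, and *Sox8*, *Lhx1* and *Etv4* were also lower. Adult mCD also held 8911 and 10976 CPM of 8 proximal tubule markers, against 41.0 CPM at most in any organoid library. Of their counts 9.64% and 9.86% were mitochondrial. This share was 0.969% to 1.58% on day 5 and day 10 and 3.10% to 3.39% on day 20 and in CD organoids. Comparisons of day 20 and of CD organoids with day 10 cross this difference in depth and mitochondrial share. Its part in the results was not tested. In such bulk libraries fewer cells of a type and less RNA per cell cannot be told apart.

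Cells build cholesterol from acetyl-CoA through mevalonate, isoprenoids, squalene and lanosterol, and build fatty acids from the same acetyl-CoA. The transcription factors SREBP2, encoded by *Srebf2*, and SREBP1, encoded by *Srebf1*, turn on the sterol and the fatty acid genes. When sterols are plentiful, INSIG proteins keep the SREBP precursors in the endoplasmic reticulum and the genes are switched down. Dividing cells need both products for new membranes.

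SREBPs bind sterol regulatory elements close to the start of their targets, beside sites for NF-Y (the CCAAT box) and Sp1 (the GC box). RefSeq windows of GRCm38.p6, from 250 bases before to 50 bases after a start, were found for 24 members, some with more than 1 start, which gave 30 windows. 4 sets of letters were searched on both strands: TCACNCCAC for the core of a sterol regulatory element, CCAAT for the NF-Y site, then GGGCGG for the GC box and CACGTG for the E-box. The CCAAT box was in 73.3% of the members' windows and in 37.4% of all 32851 windows, and the GC box was in 73.3% and 35.7%. The E-box was in 13.3% and 7.15%. The sterol regulatory element core was in 1.24% of all windows and in 1 member window, that of *Hmgcs1*, where it began 137 bases before the start. A match is a description of the letters and not a bound site. The stretches of 6 sterol members are shown because *Hmgcs1* carries the only core found and *Insig1*, *Lss*, *Dhcr7*, *Acat2* and *Cyp51* were called lower in CD organoids against day 10 and against day 20. They end at the start or where an annotated exon begins, and capitals mark any of the 4 motifs on either strand. Matches past the printed bases are thus not shown, such as a CCAAT box of *Cyp51* at base -29 from the start. For *Dhcr7* only the first of 3 windows is printed, and the others also held motifs. *Sqle*, also called lower in both comparisons, had no window.
Hmgcs1, chr13:119690101-119690350, plus strand: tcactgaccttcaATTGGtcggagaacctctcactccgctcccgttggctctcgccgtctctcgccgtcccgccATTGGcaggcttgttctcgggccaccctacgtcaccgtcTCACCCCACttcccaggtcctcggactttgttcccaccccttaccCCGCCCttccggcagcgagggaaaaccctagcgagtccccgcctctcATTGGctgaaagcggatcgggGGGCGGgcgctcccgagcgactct
Insig1, chr5:28071162-28071362, plus strand: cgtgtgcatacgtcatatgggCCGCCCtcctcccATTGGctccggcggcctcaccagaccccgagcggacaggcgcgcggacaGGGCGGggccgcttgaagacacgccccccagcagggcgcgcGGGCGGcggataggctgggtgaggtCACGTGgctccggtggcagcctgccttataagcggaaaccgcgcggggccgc
Lss, chr10:76531355-76531587, plus strand: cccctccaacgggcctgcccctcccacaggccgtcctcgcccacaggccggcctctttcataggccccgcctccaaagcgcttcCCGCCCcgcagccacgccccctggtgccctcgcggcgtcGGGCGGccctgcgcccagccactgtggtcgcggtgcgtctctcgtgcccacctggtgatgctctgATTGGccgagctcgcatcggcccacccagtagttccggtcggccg
Dhcr7, chr7:143822917-143823144, plus strand: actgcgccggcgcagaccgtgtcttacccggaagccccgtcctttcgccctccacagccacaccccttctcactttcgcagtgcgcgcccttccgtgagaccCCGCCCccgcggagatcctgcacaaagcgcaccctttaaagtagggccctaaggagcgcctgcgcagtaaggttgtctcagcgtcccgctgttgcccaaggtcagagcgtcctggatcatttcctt
Acat2, chr17:12960748-12960975, minus strand: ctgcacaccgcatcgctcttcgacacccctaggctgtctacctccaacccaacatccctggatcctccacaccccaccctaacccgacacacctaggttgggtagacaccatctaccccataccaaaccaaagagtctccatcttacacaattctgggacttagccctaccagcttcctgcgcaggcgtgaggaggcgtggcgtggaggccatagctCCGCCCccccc
Cyp51, chr5:4104747-4104947, minus strand: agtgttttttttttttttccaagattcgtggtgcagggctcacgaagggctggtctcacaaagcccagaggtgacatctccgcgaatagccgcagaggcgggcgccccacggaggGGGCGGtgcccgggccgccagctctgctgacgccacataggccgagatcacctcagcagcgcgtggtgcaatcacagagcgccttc

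Between members, levels are comparable only per length, here CPM per kilobase of exon. *Scd2*, a desaturase that puts a double bond into saturated fatty acids, stood above every other member in all 5 groups, at 1024 CPM per kilobase on day 5 and 148 in adult mCD. On day 5 it was followed by its paralog *Scd1* (165), the ATP citrate lyase *Acly* (158) and the fatty acid synthase *Fasn* (97.2). The highest sterol members on day 5 were *Hmgcs1*, which makes the precursor of mevalonate (89.9), *Srebf2* (86.8) and *Acat2*, the cytosolic thiolase that joins acetyl-CoA units (72.3). *Acss2*, which makes acetyl-CoA from acetate, was the lowest member on day 5, at 2.17 CPM per kilobase.

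As summed CPM, the sterol branch stood at 3303 and 3203 in the day 5 libraries, 2708 and 2408 on day 10, 2311 and 2292 on day 20, 1464 and 1386 in CD organoids and 1398 and 1390 in adult mCD. The sums of the 3 UB groups did not overlap with each other or with those of CD organoids. The fatty acid branch summed to 9150 and 8791 on day 5, 6759 and 6238 on day 10, 6576 and 6441 on day 20, 5099 and 4876 in CD organoids and 1752 and 1639 in adult mCD. *Scd2* alone made up between 44.2% and 48.5% of all members' CPM in the organoid groups and 26.1% in adult mCD, so the sums of the fatty acid branch follow it. The heat map shows the groups gene by gene.

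**Figure D1:**
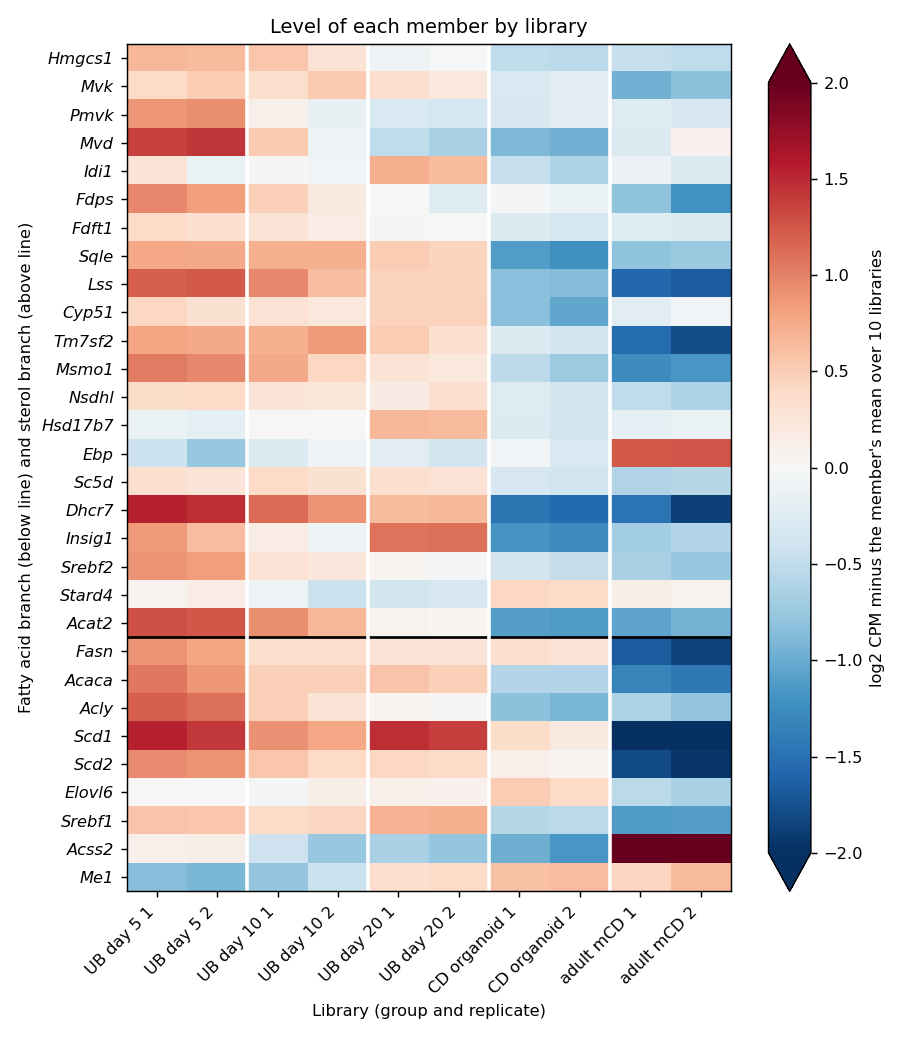
Level of each of the 30 members (rows, sterol branch above the black line, fatty acid branch below) in each of the 10 libraries (columns), as log2 CPM minus the member's mean over the libraries; colours saturate at 2 in either direction. Most sterol members are red in the UB organoids and blue in CD organoids and adult mCD, while *Ebp* and *Acss2* are a strong red in adult mCD alone.

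The first comparison was made within UB culture, and a gene was called when its adjusted p in edgeR's quasi-likelihood test was at most 0.01 and its change was over 2-fold. From day 5 to day 10, 1 sterol member of 21 fell and none rose, and none of the 9 fatty acid members was called. Among the 24410 genes tested, calls were made for 5.03% in the higher and 3.27% in the lower direction, so the members were called about as often as other genes. DESeq2 and limma also called 0 fatty acid members, of which 8 had an unadjusted edgeR p under 0.05. The member that fell was *Mvd*, the mevalonate diphosphate decarboxylase, with 73.0 and 76.3 CPM on day 5 and 40.5 and 26.4 CPM on day 10 (log2 fold change -1.16 ± 0.16 SE, adjusted p = 9.52e-05). Its day 10 libraries lay apart from each other, and without day 10 replicate 2 the log2 fold change was -0.89 and the call was lost.

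Smaller differences ran the same way in much of the group. Of the 21 sterol members 17 had a log2 fold change below 0, with a median of -0.23, and of the 9 fatty acid members 7 did, with a median of -0.49, beside a median of 0.02 over all genes. With the looser limit of an adjusted p up to 0.05 whatever the fold, 11 sterol and 6 fatty acid members passed, where 32.6% of all genes did. Over 4-fold no member passed, against 3.41% of all genes. *Pmvk*, the kinase before *Mvd* in the pathway, had 57.2 and 59.3 CPM on day 5 and 33.4 and 28.0 CPM on day 10 (log2 fold change -0.92 ± 0.10 SE). *Acly* had 865 and 806 CPM and then 523 and 455 CPM (log2 fold change -0.77 ± 0.08 SE). The groups did not overlap for either gene, and both changes stayed under 2-fold. Under library totals the median of all genes moved by 0.14, and both branch medians stayed below 0.

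From day 10 to day 20, 1 sterol member rose and none fell, and no fatty acid member was called, beside 3.67% of all genes called higher and 4.32% lower. DESeq2 and limma called 0 fatty acid members here as well, and 4 had an unadjusted edgeR p under 0.05. *Insig1*, whose product holds back SREBP, had 93.8 and 80.4 CPM on day 10 and 179 and 183 CPM on day 20 (log2 fold change 1.06 ± 0.09 SE, adjusted p = 2.80e-06). Its day 5 libraries, at 153 and 131 CPM, lay between the others, so the level went down and up again in culture. Without day 10 replicate 2 the log2 fold change was 0.97, just under the 2-fold limit.

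The median log2 fold change of this step was -0.23 in the sterol branch and 0.05 in the fatty acid branch, against -0.10 over all genes. Over 4-fold, no member passed, with 3.39% of all genes past that limit. Under the looser limit, 14 sterol and 4 fatty acid members passed, with 29% of all genes. *Acat2* had 146 and 122 CPM on day 10 and 80.4 and 79.0 CPM on day 20 (log2 fold change -0.74 ± 0.08 SE), which was the second step down after day 5, at 187 and 181 CPM. In the other direction, *Me1*, the malic enzyme that supplies NADPH, had 43.5 and 55.8 CPM on day 10 and 94.9 and 97.9 CPM on day 20 (log2 fold change 0.96 ± 0.11 SE). *Me1* stayed just under the 2-fold limit and was called when only the 4 libraries compared were fitted (log2 fold change 1.01), without day 10 replicate 2 (1.17) and without day 20 replicate 1 (1.00). *Scd1* had 542 and 495 CPM on day 10 and 807 and 757 CPM on day 20, a level that overlapped with that of day 5, at 841 and 774 CPM.

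The next comparison asked what differed after UB organoids were differentiated. In CD organoids, 9 of the 21 sterol members fell against UB organoids of day 10 and none rose, where 11.1% of all genes fell and 10.1% rose. They were *Acat2* and *Mvd* before squalene, *Sqle* and *Lss* at squalene, *Cyp51*, *Tm7sf2*, *Msmo1* and *Dhcr7* between lanosterol and cholesterol, and the regulator *Insig1*. *Hmgcs1*, *Mvk*, *Pmvk*, *Idi1*, *Fdps* and *Fdft1*, which lead up to squalene, were not called. The log2 fold change was below 0 in 19 of 21 sterol members, with a median of -0.72, beside -0.15 over all genes. Under the looser limit of 0.05, 18 passed, with 47.2% of all genes.

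*Dhcr7*, the reductase that completes cholesterol (chromosome 7, 143823145 to 143848410, GRCm38), changed most. Its level was 154 and 131 CPM on day 10, 109 and 110 CPM on day 20 and 25.4 and 23.7 CPM in CD organoids (5.78-fold lower than on day 10, log2 fold change -2.53 ± 0.12 SE, adjusted p = 6.92e-10). It was the only member past 4-fold here, against 10.7% of all genes. *Sqle*, the squalene epoxidase, stayed between 207 and 259 CPM in all 6 UB libraries and was at 69.9 and 65.1 CPM in CD organoids (log2 fold change -1.88 ± 0.07 SE, adjusted p = 1.27e-10). The UB groups thus lay close together and the CD organoids well below them.

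*Acat2* had 35.6 and 35.0 CPM in CD organoids (log2 fold change -1.92 ± 0.09 SE, adjusted p = 9.56e-10). *Lss*, which closes the sterol rings, had 167 and 131 CPM on day 10 and 47.9 and 46.7 CPM in CD organoids (log2 fold change -1.65 ± 0.10 SE, adjusted p = 1.03e-08). *Insig1* was at 37.7 and 35.5 CPM in CD organoids (log2 fold change -1.25 ± 0.10 SE, adjusted p = 1.54e-07). In all 3 genes the CD organoid libraries lay below every UB library. *Cyp51*, *Msmo1*, *Tm7sf2* and *Mvd* fell by less, with log2 fold changes of -1.18, -1.22, -1.11 and -1.17. Without day 10 replicate 1, that of *Mvd* was -0.81 and its call was lost.

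*Stard4*, whose product carries cholesterol between membranes and is not an enzyme of the route, went the other way. It had 202 and 161 CPM on day 10 and 287 and 283 CPM in CD organoids, where it was higher than in any other library (log2 fold change 0.65 ± 0.09 SE, adjusted p = 4.68e-05), a change under 2-fold. *Ebp*, a sterol isomerase, had 16.3 and 19.1 CPM on day 10 and 19.2 and 16.2 CPM in CD organoids, and these overlapped. *Hmgcs1* had 386 and 319 CPM on day 10 and 186 and 182 CPM in CD organoids, which was 1.91-fold lower and so not called. It was called with library totals and with limma (log2 fold changes of -1.03 and -1.02). Without day 10 replicate 2 its log2 fold change was -1.05. *Srebf2* itself had 416 and 397 CPM and 265 and 244 CPM (log2 fold change -0.68 ± 0.07 SE), also not called.

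In the same comparison 2 fatty acid members were called lower, 1 higher and 6 not at all, and the median log2 fold change was -0.49. Over all genes 11.1% were called lower and 10.1% higher, so members were called higher about as often as other genes. Under the looser limit, 8 of the 9 passed, with 47.2% of all genes, and over 4-fold none did, against 10.7%. *Acly*, which makes cytosolic acetyl-CoA from citrate, fell to 214 and 200 CPM (log2 fold change -1.24 ± 0.09 SE, adjusted p = 4.39e-08). *Acaca*, the acetyl-CoA carboxylase, had 78.1 and 77.8 CPM on day 10 and 37.5 and 37.4 CPM in CD organoids (log2 fold change -1.06 ± 0.09 SE, adjusted p = 1.75e-07). *Me1* rose to 113 and 115 CPM (log2 fold change 1.20 ± 0.11 SE, adjusted p = 4.85e-07). *Fasn*, which uses the product of *Acaca*, had 761 and 756 CPM on day 10 and 749 and 710 CPM after differentiation, a log2 fold change of -0.06 ± 0.08 SE. *Srebf1* had 237 and 247 CPM and then 123 and 126 CPM, which was 1.95-fold lower and under the limit. It was called with library totals and with limma (log2 fold change -1.05 with either). The members thus did not move as 1 block, and *Fasn* differed by little while its neighbour *Acaca* was more than 2-fold lower.

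Set against UB organoids of day 20, which share the CD organoid libraries with the comparison above, 7 sterol members fell and none rose, beside 9.27% of all genes lower and 9.25% higher. They were *Insig1*, *Dhcr7*, *Sqle*, *Cyp51*, *Lss*, *Idi1* and *Acat2*, with log2 fold changes from -2.30 to -1.17. The median of the branch was -0.67, beside 0 over all genes. *Insig1* was 4.94-fold lower against day 20 and 2.38-fold lower against day 10, since its UB level had risen between these days. In the fatty acid branch *Srebf1*, *Scd1* and *Acaca* fell, with log2 fold changes of -1.25, -1.16 and -1.11. *Me1* had a log2 fold change of 0.24 and was not called.

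**Figure D2:**
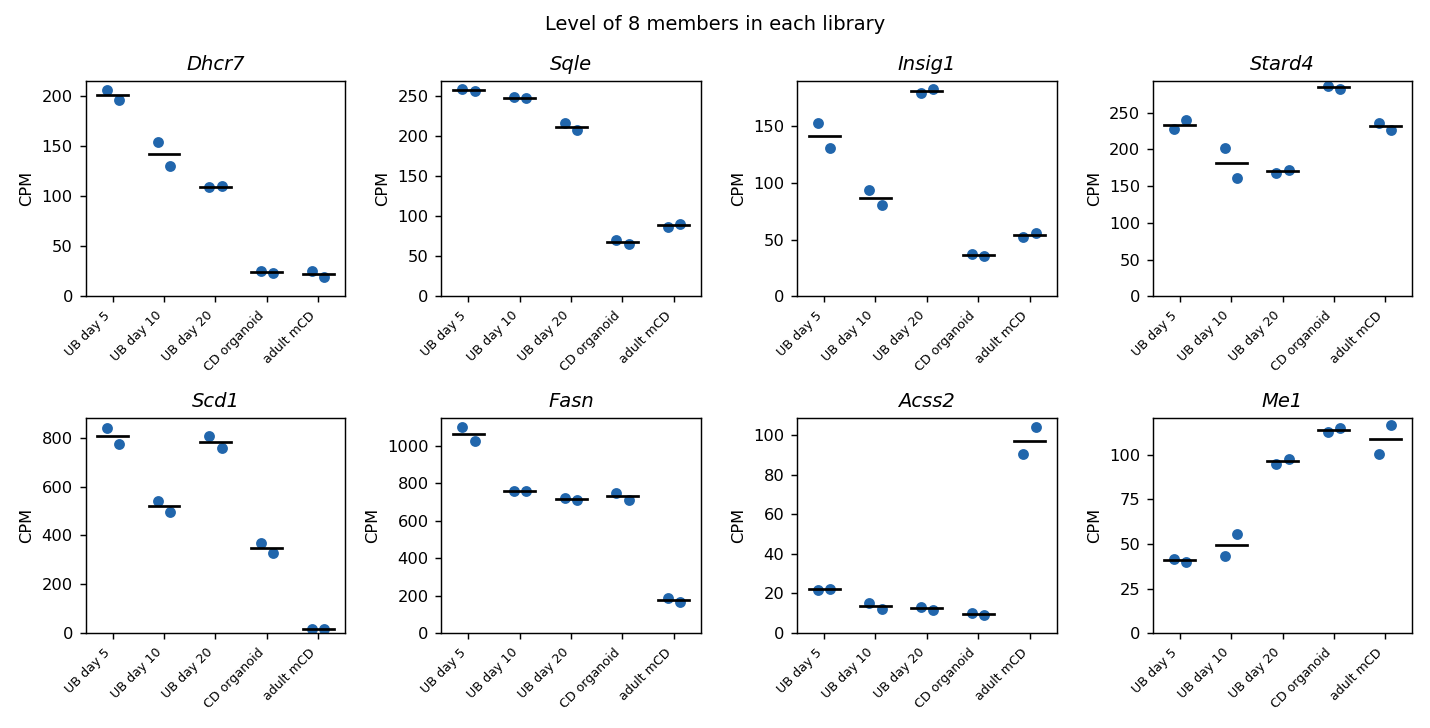
CPM of 8 members in each library (points, 2 per group) with the group mean (bar); each vertical axis starts at 0 and has its own scale. *Dhcr7* and *Sqle* drop between the UB groups and CD organoids, *Scd1* and *Fasn* are lowest in adult mCD, *Acss2* is highest there and *Me1* is higher from UB day 20 on.

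The libraries also differed in their proliferation markers, which summed to 1739 and 1932 CPM on day 10, 257 and 278 CPM in CD organoids and 247 and 255 CPM in adult mCD. All 7 proliferation markers fell in CD organoids against day 10, with a median log2 fold change of -3.00. Between the same groups, the sum of 8 intercalated cell markers went from 0.674 and 0.839 CPM to 2032 and 1942 CPM. That of 8 principal cell markers went from 210 and 140 CPM to 1496 and 1334 CPM. The sum of 4 stroma markers went from 24.2 and 18.4 CPM to 216 and 103 CPM, although *Pdgfrb* fell from 4.84 and 4.45 CPM to 3.27 and 1.68 CPM. The part of these markers in the fall of the sterol members was not tested. Between day 5 and day 20 the proliferation markers went from 2716 and 2409 to 1350 and 1263 CPM, with none of the 7 called by edgeR in either step and 5 at an unadjusted p under 0.05 in each.

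CD organoids were then compared with the adult cells they are meant to resemble. Here the branches parted. In the fatty acid branch 4 of 9 members were higher in CD organoids and 1 was lower, while in the sterol branch 1 of 21 was higher and 1 lower, beside 9.6% of all genes called higher and 15% lower. The median log2 fold change was 0.79 in the fatty acid branch, 0.02 in the sterol branch and 0 over all genes. Over 4-fold, 3 fatty acid members and no sterol member passed, with 14.3% of all genes, and under the looser limit 7 and 14 did, with 49.8%.

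*Scd1* showed the widest gap of all members. It had 371 and 327 CPM in CD organoids and 17.3 and 18.2 CPM in adult mCD (19.6-fold higher, log2 fold change 4.29 ± 0.10 SE, adjusted p = 2.93e-12). Its paralog *Scd2* had 3161 and 3054 CPM and 851 and 765 CPM (log2 fold change 1.94 ± 0.08 SE, adjusted p = 3.45e-10). The 2 genes are neighbours on chromosome 19 of GRCm38, *Scd2* from 44293674 to 44306864 on the plus strand and *Scd1* from 44394455 to 44407879 on the minus strand. How reads that match both were counted was not stated. Per kilobase, *Scd2* stood 7.63 and 8.36 times above *Scd1* in the CD organoid libraries and 43.9 and 37.6 times above it in adult mCD. In the UB organoid libraries this ratio was between 4.36 and 7.16, so the pair was unequal everywhere and most unequal in the adult cells.

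*Fasn* had 749 and 710 CPM in CD organoids and 187 and 165 CPM in adult mCD (log2 fold change 2.05 ± 0.08 SE, adjusted p = 1.56e-10). *Elovl6*, which lengthens the product of *Fasn*, had 320 and 298 CPM and 156 and 144 CPM (log2 fold change 1.04 ± 0.08 SE, adjusted p = 8.37e-08), and it fell just under 2-fold with DESeq2 and without CD organoid replicate 1 or adult mCD replicate 2 (log2 fold changes of 0.99, 0.99 and 0.96). These 4 genes encode enzymes that make, lengthen and desaturate long-chain fatty acids. *Acly* and *Acaca*, which act upstream of them, were not called. *Acly* had 214 and 200 CPM against 244 and 220 CPM. *Acaca* had 37.5 and 37.4 CPM against 22.3 and 20.9 CPM, so its groups did not overlap either (log2 fold change 0.79 ± 0.09 SE), and it was called with library totals and with limma.

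*Acss2* went against the rest, with 10.4 and 9.06 CPM in CD organoids and 90.1 and 104 CPM in adult mCD (9.90-fold lower, log2 fold change -3.31 ± 0.13 SE, adjusted p = 1.96e-10). It was at most 22.2 CPM in any organoid library. Per kilobase, *Acly*, the other enzyme that supplies cytosolic acetyl-CoA, stood 39.6 and 42.6 times above *Acss2* in CD organoids and 5.21 and 4.08 times above it in adult mCD. *Me1* had 101 and 117 CPM in adult mCD, a range that held both CD organoid values.

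In the sterol branch the reductase *Tm7sf2* was higher in CD organoids, with 24.2 and 22.5 CPM against 10.0 and 8.57 CPM (log2 fold change 1.32 ± 0.12 SE, adjusted p = 6.03e-07), and *Ebp* was lower, against 46.8 and 47.7 CPM (log2 fold change -1.41 ± 0.14 SE, adjusted p = 1.09e-06). Part of the exon bases of *Tm7sf2* (12.1%) is shared with *Vps51* on the same strand, which makes its count uncertain. *Dhcr7* had 25.3 and 19.2 CPM in adult mCD and a log2 fold change of 0.14 ± 0.13 SE, and *Acat2* had 37.0 and 39.6 CPM and -0.12 ± 0.10 SE. For these 2 genes, among the most reduced against UB organoids, the CD organoid level lay close to the adult one. *Sqle* and *Insig1*, also reduced against UB organoids, were lower than in adult mCD by less than 2-fold (log2 fold changes -0.39 ± 0.07 SE and -0.57 ± 0.10 SE). *Cyp51* was lower than in the adult cells by less than 2-fold, at 85.1 and 74.3 CPM against 130 and 147 CPM, and *Lss* was higher by less than 2-fold, at 47.9 and 46.7 CPM against 28.8 and 27.0 CPM.

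The scaling between libraries bears on this comparison more than on the others. With library totals alone the median of all genes moved by 0.34 on the log2 scale, the sterol median became 0.41, and *Mvk*, *Fdps*, *Lss* and *Acaca* were called higher as well. Of all calls, 39.1% were higher in CD organoids with the main scaling and 57.6% with library totals. The proximal tubule markers in adult mCD, all 8 of them above 1 CPM, moved with this comparison, as did the 2 loop of Henle markers, at 3274 and 3466 CPM against 5.13 CPM at most in organoids. So did 2 distal convoluted tubule markers (444 and 492 CPM against 1.44 CPM at most), 4 endothelial markers (506 and 499 CPM against 2.45 CPM at most) and 8 principal cell markers, at 11985 and 11516 CPM against 1496 and 1334 CPM in CD organoids. Their part in the differences of *Scd1*, *Fasn* and *Acss2* was not tested. Of the 7 adipocyte markers, 6 were at or under 3 counts in both adult libraries, and *Fabp4*, which endothelium also expresses, was at 62.4 and 61.9 CPM.

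**Figure D3:**
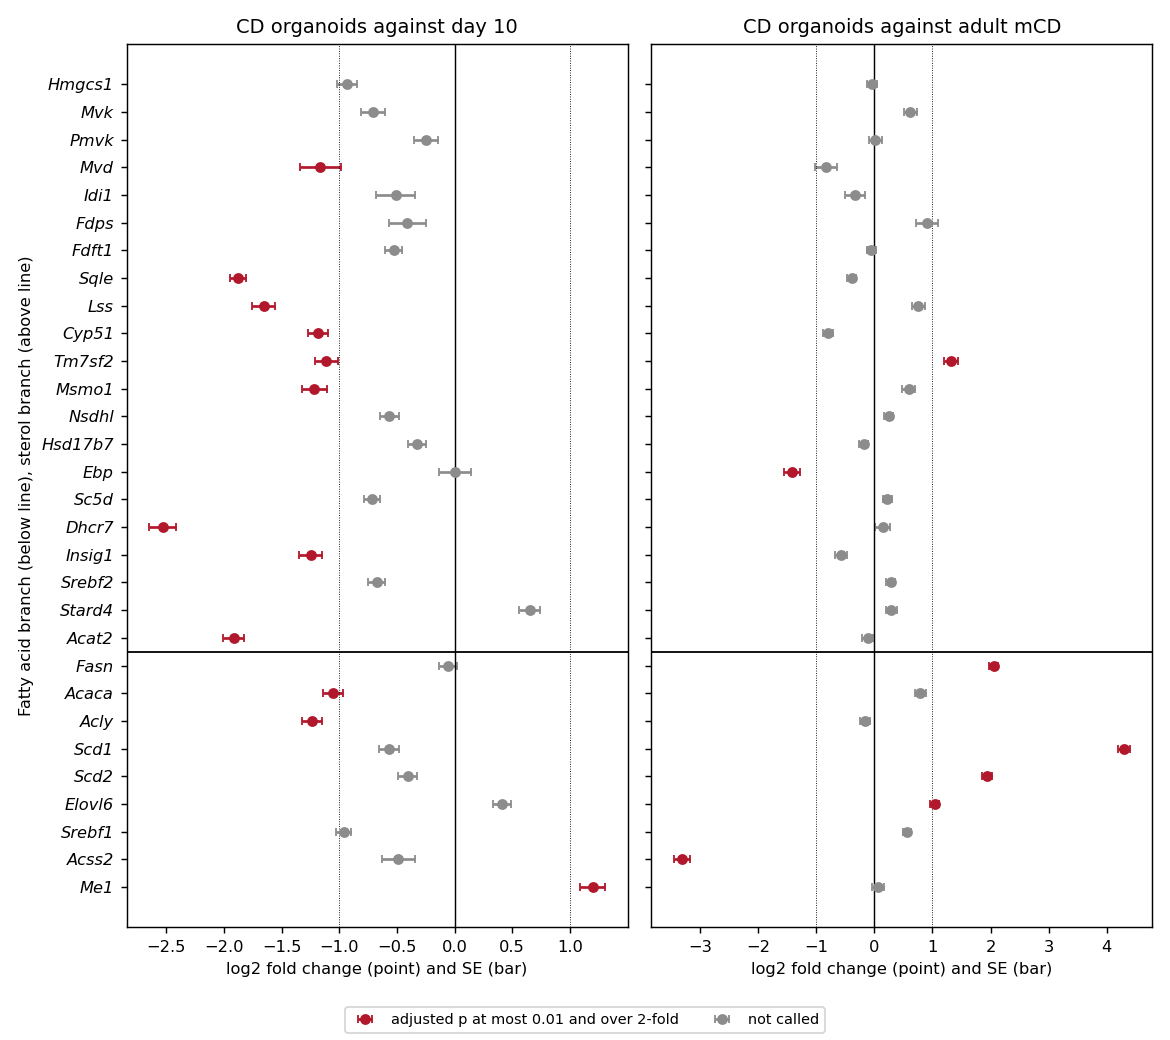
Log2 fold change (point) with its standard error (bar) of each member in CD organoids against UB organoids of day 10 (left) and against adult mCD (right); red marks a called member, grey one not called, and dotted lines mark 2-fold. On the left 9 sterol members lie below -1 in red, while on the right the sterol members centre on 0 and *Scd1*, *Fasn*, *Scd2* and *Elovl6* lie above 1.

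Other lipid genes were counted from lists beside the members. Of 12 further genes of sterol synthesis and uptake, 6 fell in CD organoids against day 10 and none rose (11.1% and 10.1% of all genes did), with a median log2 fold change of -1.18. *Lbr*, a sterol reductase of the nuclear envelope, had a log2 fold change of -2.00 ± 0.08 SE, and *Npc1l1* was called at under 2 CPM in all 4 libraries. Against adult mCD, 2 genes of this list were higher and 2 lower, with 9.6% and 15% of all genes called in these directions.

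Of the 4 SREBP processing genes none was called by edgeR in any comparison, with 1 to 4 at an unadjusted p under 0.05. Of 8 genes of sterol efflux and the LXR pathway, 3 rose and 1 fell against day 10, beside the same 10.1% and 11.1%. *Abca1*, which exports cholesterol, had 7.45 and 11.7 CPM on day 10 and 69.8 and 62.9 CPM in CD organoids (log2 fold change 2.78 ± 0.17 SE), against 0.939 and 0.612 CPM on day 5. *Soat1*, which esterifies cholesterol for storage, had 525 and 608 CPM and 1291 and 1312 CPM (log2 fold change 1.20 ± 0.08 SE), but 69.6 and 66.6 CPM in adult mCD. Against adult mCD it was the only gene of the list called higher in CD organoids (log2 fold change 4.26 ± 0.09 SE), next to 3 called lower. Over all genes 9.6% were called higher and 15% lower in that comparison.

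The 12 fatty acid oxidation genes all had log2 fold changes above 0 in CD organoids against day 10, and 4 of them rose (median 0.77), beside 10.1% of all genes. Against adult mCD all 12 were below 0 and 9 were called lower (median -1.42), beside 15% of all genes. The tubule markers and the mitochondrial share, at 3.16% and 3.19% of counts in CD organoids and 9.64% and 9.86% in adult mCD, moved with this list, and their part in it was not tested. *Cpt1a*, which admits fatty acids to the mitochondrion, had 29.3 and 49.4 CPM on day 10, 146 and 143 CPM in CD organoids and 635 and 652 CPM in adult mCD. Of 18 further genes of fatty acid and glycerolipid synthesis, 6 rose and 3 fell against day 10, beside 10.1% and 11.1% of all genes, and 2 were higher and 5 lower than in adult mCD, beside 9.6% and 15%. *Mlxipl*, which encodes the carbohydrate-responsive factor ChREBP, went from 31.7 and 35.2 CPM on day 5 to 13.7 and 11.9 CPM on day 10, 3.09 and 3.50 CPM on day 20 and 0.712 and 0.642 CPM in CD organoids, and it was at 44.9 and 52.8 CPM in adult mCD.

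**Figure D4:**
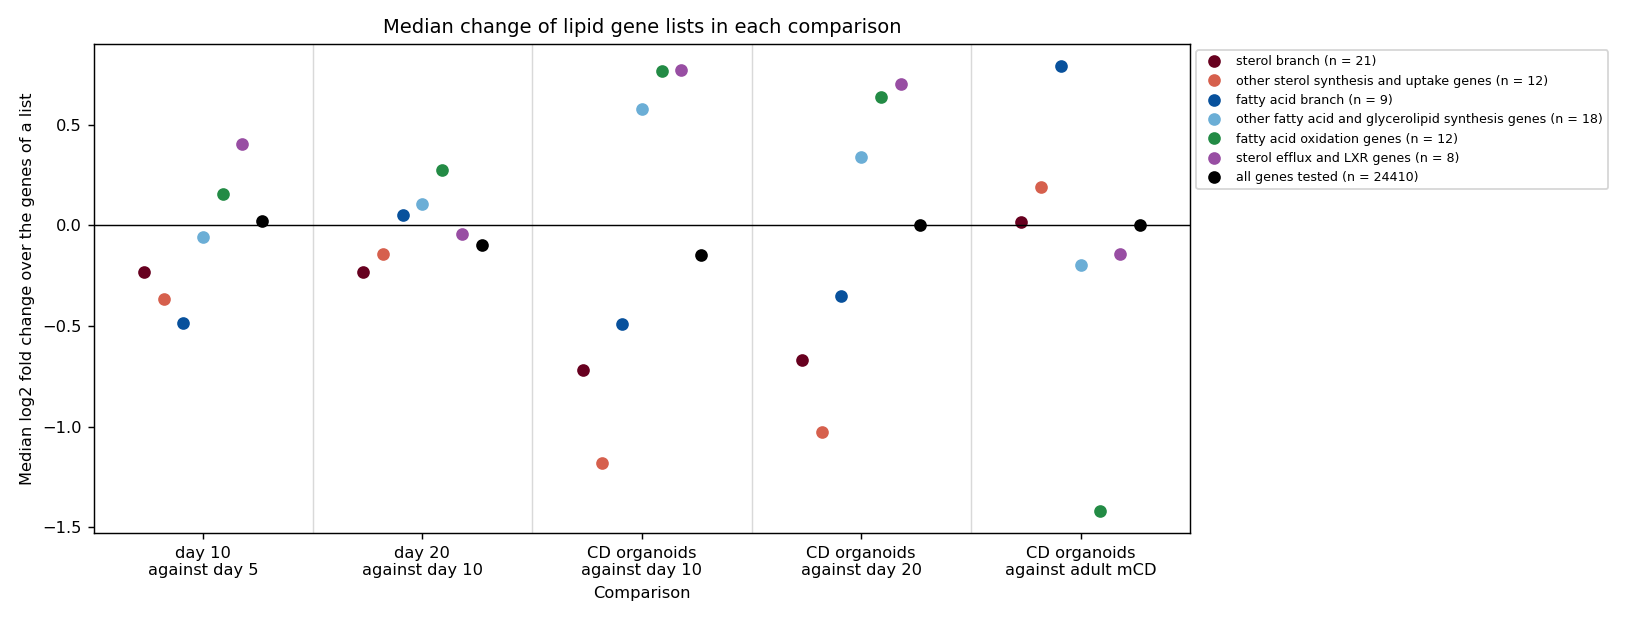
Median log2 fold change over the genes of each list (points, with the number of genes in the legend) in the 5 comparisons; comparisons that share a group are not independent. In CD organoids against day 10 the sterol lists lie at -0.72 and -1.18 and fatty acid oxidation at 0.77, and against adult mCD the fatty acid branch lies at 0.79 and fatty acid oxidation at -1.42.

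The 2 SREBP genes had different courses. *Srebf2* went down through UB culture, with 638 and 608 CPM on day 5 and 348 and 335 CPM on day 20, and was lowest in adult mCD, at 217 and 201 CPM. *Srebf1* was highest on day 20, at 294 and 298 CPM, and lowest in adult mCD, at 83.6 and 85.4 CPM. Neighbouring groups did not overlap in the order of either gene. Over the 10 libraries, which share groups and so are not independent points, the genes with a mean of at least 10 CPM whose log2 CPM was most like that of *Srebf2* were *Ccnk*, *Odf2*, *Rbm17*, *Nup88* and *Sf3b2* (Pearson r from 0.993 to 0.994), and for *Srebf1* they were *Dzip1*, *Tenm3*, *Rgs12*, *Rfx7* and *Adgrl2* (0.993 to 0.998). None of them was a member. The median r over the other 29 members was 0.84 for *Srebf2* and 0.81 for *Srebf1*, beside 0.09 and 0.08 over all such genes.

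Among the remaining members, *Hsd17b7*, a ketosteroid reductase, was highest on day 20, at 90.2 and 88.0 CPM, against 47.1 and 42.8 CPM after differentiation, a log2 fold change of -0.98 ± 0.08 SE that missed the 2-fold limit. *Idi1*, the isomerase of the isoprenoid units, was low throughout (at most 17.3 CPM), and fell against day 20 from 17.3 and 16.3 CPM to 7.62 and 6.82 CPM (log2 fold change -1.21 ± 0.17 SE). *Fdps* was also low, at 21.6 CPM or less, and 26.7% of its exon bases are shared with another gene model. *Fdft1*, which makes squalene, varied least in level among the members, with group means 1.60-fold apart at most, but 18.3% of its exon bases overlap *Ctsb* on the opposite strand, and whether counting used the strand was not stated. *Mvk*, *Nsdhl* and *Sc5d* were not called in any of the 5 comparisons, and were 1.63-, 1.48- and 1.65-fold lower in CD organoids than on day 10.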

How the data were processed

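Poly(A) RNA of 10 libraries in 5 groups was sequenced, and 1 table was analysed. Its deposited counts are whole numbers. The paper describes work in Partek Flow, where STAR placed trimmed reads on mm10 (GENCODE M24) and the E/M model quantified them. The submitters' notes on the deposit name GRCm38.p6, FastQC 0.11.8, cutadapt 2.5, Trimmomatic 0.36, STAR and edgeR 3.28.1. Whether the deposited counts came from the Partek route was not stated. The authors' RPKM values served only to check the columns, since their length column sums exons over isoforms. The deposited TMM values, a signal of counts scaled to a common total, entered only 1 alternative.

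Counts were tested with edgeR 4.0.16 (quasi-likelihood, TMM factors from 0.792 to 1.12, prior count 1, R 4.3.3), with all 10 libraries in 1 fit. Genes with a count sum of at least 10 were tested (24410), with Benjamini-Hochberg adjustment over all of them. CPM are TMM-scaled. Levels per kilobase used union exon lengths of GENCODE M21, as did coordinates (GRCm38), and 99.7% of identifiers were found there. The step was tested on simulated data for CD organoids against day 10, where it recovered 198 of 200 changed genes (102 of 102 changed 8-fold) with 1 false call among 23579 genes. In the simulation all genes had the same dispersion, changed genes were not of low count, and all other genes were equal over the groups. These figures thus check the code and do not give its error rates on the real libraries. At 3 counts, the floor of a library was between 0.122 and 0.252 CPM, counting error only. Alternatives used DESeq2 1.42.0 and limma 3.58.1 (pseudocount 1). Likeness used log2(CPM + 0.5). Python 3.11.15, pandas 2.3.3 and matplotlib 3.10.9 were used.

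All members are named. Of other lists, at most the 3 called genes with the largest change per comparison are named, and some are not reported here. The members and lists were chosen with earlier results of these data known.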

Additional observations from a re-analysis of the deposited data

How the results depend on the processing

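No called member changed direction under any alternative. Over the alternatives that kept the limits, the libraries and the control group, 14 of 960 member values changed their call. Over those that left out a library 11 of 480 did. The members involved had log2 fold changes between 0.62 and 1.17 in size in the main fit. The 4-fold limit, the 0.05 limit and day 20 as control are not in these counts. Under them the sterol members called lower in CD organoids against day 10 or called at all went from 9 to 1, 18 and 7. When scaled by library totals, or with limma on log2 of the deposited TMM values, the fatty acid median against adult mCD was 1.184 and 1.186, against day 10 -0.5795 and -0.577, and from day 5 to day 10 -0.3394 and -0.3359. The sterol median against adult mCD was 0.4123 and 0.4126 and from day 5 to day 10 -0.08296 and -0.08843, and 5 sterol members were called against adult mCD with either. Of all calls from day 5 to day 10, 60.7% were higher in the main fit, 71.7% with library totals and 75.7% with limma. Over 4-fold, the fatty acid counts were 3 against adult mCD and 0 for CD organoids against day 10, and the sterol counts were 0 against adult mCD, 1 for CD organoids against day 10, 0 from day 5 to day 10 and 0 from day 10 to day 20. Under the limit of 0.05 with no fold limit, the fatty acid counts were 8 for CD organoids against day 10, 6 from day 5 to day 10 and 4 from day 10 to day 20, and the sterol counts were 14 against adult mCD, 18, 11 and 14. With only the 4 libraries compared, 1 fatty acid member (*Me1*) was called from day 10 to day 20. With day 20 as control, the fatty acid median of CD organoids was -0.3512. Leaving out 1 library at a time gave fatty acid medians of 0.7273 to 0.8709 against adult mCD and -0.6175 to -0.3107 for CD organoids against day 10, and 0 to 1 fatty acid members called from day 10 to day 20. For the sterol branch from day 5 to day 10, it gave medians of -0.3836 to -0.1349 and 0 to 2 members called, with *Pmvk* added without day 10 replicate 1 and *Mvd* lost without day 10 replicate 2. Where a group kept 1 library, that library is assumed to vary like the other groups. The causes of these shifts were not tested.

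Replicate numbers gave little sign of pairing, with deviations of same-numbered libraries that correlated between -0.0548 and 0.139. With 2 libraries per group this cannot exclude pairing. With the replicate block, 9 sterol members were called for CD organoids against day 10 and the median was -0.7187, and no call of a branch count changed. Since a group has only 2 libraries, the test takes each gene's spread over all groups and moderates it with that of the other genes. A difference near 2-fold can fall on either side of the limit.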
